A study of Caenorhabditis elegans with 26 samples.

Results

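The 10 genes described here encode RNA-binding proteins of the germ line, the oocyte and the early embryo of Caenorhabditis elegans: puf-3, puf-5, puf-11, oma-1, oma-2, gld-1, pos-1, mex-1, mex-3 and spn-4. They were taken by name from WormBase as regulators known from oocytes, and a rise over both time courses was part of how they were chosen, so that rise is given below as a description without a test. All 10 names matched 1 identifier each among the 20182 genes of the count table. Whole worms of the wild-type strain N2 were sampled after hatched L1 larvae had been put on food. Course B used peptone-rich NGM plates seeded with NA22, a strain of Escherichia coli that grows densely, and its 10 libraries were taken every 2 h from 18 to 36 h. Course A used ordinary NGM plates seeded with the common food strain OP50, and its 16 libraries were taken every 1 h from 21 to 36 h. The labels put the course A harvests 1 h later than these title times, because that course developed slowly. Title times are used throughout.

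Oocytes of this worm store mRNAs that are translated only later, at oocyte maturation or at set places in the embryo, and RNA-binding proteins decide when and where that happens. PUF proteins, the STAR protein GLD-1 and the CCCH zinc finger proteins OMA-1 and OMA-2 act mostly as translational repressors in the germ line and the growing oocyte. POS-1, MEX-1, MEX-3 and SPN-4 are made from maternal mRNA and act mainly in early embryos, where they restrict proteins such as GLP-1 and PAL-1 to certain cells.

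The libraries were made from total RNA depleted of ribosomal RNA. They held 22587893 to 36083371 counts each in course B and 16241561 to 29911888 counts each in course A. Levels are given as CPM, that is counts in every 1e6 of a library, on a TMM scale shared by all 26 libraries. The lowest count of any of the 10 genes was 7 in course B and 17 in course A, and all 10 passed the filter on low counts in both courses. Each time was sampled once, so the standard errors and p-values measure how single libraries deviate from a fitted curve and say nothing of the spread between cultures. Bacterium, medium and culture change together between the courses and cannot be told apart. In whole worms, more germ cells and more RNA per germ cell cannot be told apart either.

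The gene puf-5 encodes a PUF repressor of oocyte mRNAs and showed the widest range of the 10 genes. Its level was lowest at 0.231 CPM, had a median of 1.43 CPM and peaked at 30.5 CPM in course B, against a lowest level of 1.11 CPM, a median of 2.99 CPM and a peak of 55.9 CPM in course A. In course B it stood at 0.342 CPM at 18 h, 2.49 CPM at 32 h and 30.5 CPM at 36 h. In course A it stood at 1.36 CPM at 21 h, 6.45 CPM at 32 h and 55.9 CPM at 36 h. In CPM most of the climb fell in the last 4 h, over which the level grew 12.2-fold in course B and 8.67-fold in course A. The fitted change over 15 h was 4.90 ± 0.70 in course B and 4.88 ± 0.60 in course A (log2 ± SE).

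The genes puf-3 and puf-11 encode a near-identical pair of PUF proteins that act beside PUF-5. Reads shared between them could have been split or assigned either way, so their values are not independent. The gene puf-3 ran from 0.559 CPM through a median of 2.05 CPM to 25.0 CPM in course B, and from 1.60 CPM through a median of 4.31 CPM to 43.9 CPM in course A. The gene puf-11 ran from 2.61 CPM through a median of 6.59 CPM to 44.6 CPM in course B, and from 5.01 CPM through a median of 8.73 CPM to 52.9 CPM in course A. All 4 highest values were those at 36 h. The change over 15 h was 4.07 ± 0.59 in course B and 4.02 ± 0.44 in course A for puf-3 (log2 ± SE), and 2.91 ± 0.35 in course B and 3.04 ± 0.34 in course A for puf-11. Per length of exon, puf-3 reached a median of 0.432 of the puf-11 level at 30 to 36 h in course B, against 0.236 at 18 to 24 h. In course A the median ratio was 0.517 at 29 to 36 h, against 0.360 at 21 to 28 h, and the ratios of the 2 windows overlapped in both courses.

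The redundant pair oma-1 and oma-2, which is needed for the last steps of oocyte growth and for maturation, rose by less than the PUF genes puf-3 and puf-5. The gene oma-1 ran from 0.590 CPM through a median of 2.71 CPM to 10.1 CPM in course B, and from 2.16 CPM through a median of 4.50 CPM to 16.7 CPM in course A. The gene oma-2 ran from 0.989 CPM through a median of 2.74 CPM to 10.3 CPM in course B, and from 2.96 CPM through a median of 5.03 CPM to 21.6 CPM in course A. The change over 15 h was 3.02 ± 0.27 in course B and 2.75 ± 0.30 in course A for oma-1 (log2 ± SE), and 2.27 ± 0.32 in course B and 2.03 ± 0.38 in course A for oma-2. The level of oma-1 grew 1.18-fold between 28 and 32 h and 2.57-fold between 32 and 36 h in course B, and 1.49-fold and 2.46-fold over the same intervals in course A. In course A, oma-2 stayed between 2.96 and 7.09 CPM up to 33 h and stood at 9.77, 15.1 and 21.6 CPM at 34, 35 and 36 h. With the libraries of 34 to 36 h left out, a setting chosen after seeing the data, its change in course A was 0.80 and no longer reached the fold minimum of 1 (log2).

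The gene gld-1 encodes a STAR-domain repressor that takes germ cells through meiotic prophase and falls away as oocytes form. Its CPM at 36 h was the highest of the 10 genes in both courses. It ran from 9.38 CPM through a median of 27.2 CPM to 160.1 CPM in course B, and from 16.2 CPM through a median of 32.2 CPM to 130.4 CPM in course A. Its climb was spread over the course: the level grew 1.34-fold from 24 to 28 h, 1.91-fold from 28 to 32 h and 2.69-fold from 32 to 36 h in course B. Over the same intervals it grew 1.38-fold, 2.24-fold and 1.88-fold in course A. The change over 15 h was 3.41 ± 0.22 in course B and 2.72 ± 0.24 in course A (log2 ± SE).

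Among the genes whose proteins act in the embryo, pos-1, a CCCH zinc finger gene needed for posterior fates, changed most. It ran from 0.652 CPM through a median of 2.50 CPM to 25.9 CPM in course B, and from 2.16 CPM through a median of 5.66 CPM to 68.5 CPM in course A. At 34 and 36 h it stood at 8.26 and 25.9 CPM in course B, and at 34, 35 and 36 h it stood at 22.5, 49.9 and 68.5 CPM in course A. The gene mex-1, a CCCH gene needed for the segregation of germ granules and germ cell fate in embryos, had a median of 2.08 CPM and a highest level of 13.2 CPM in course B, against a median of 2.25 CPM and a highest level of 18.6 CPM in course A. The gene spn-4, whose RRM protein acts in spindle orientation and in the translation of maternal mRNAs, ran from 8.73 CPM through a median of 17.5 CPM to 57.9 CPM in course B. In course A it ran from 12.9 CPM through a median of 20.1 CPM to 97.0 CPM. The change over 15 h in course B was 3.51 ± 0.53 for pos-1, 2.89 ± 0.42 for mex-1 and 1.89 ± 0.23 for spn-4 (log2 ± SE). In course A it was 4.12 ± 0.39 for pos-1, 3.39 ± 0.51 for mex-1 and 2.29 ± 0.29 for spn-4.

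The gene mex-3 went against the description of the group as rising. It encodes a KH-domain repressor of pal-1 mRNA in the anterior embryo and is also made in the distal germ line. Its level was 19.1 CPM at 18 h, 33.3 CPM at 28 h, 20.1 CPM at 32 h and 48.6 CPM at 36 h in course B. In course A it was 12.6 CPM at 21 h, 25.7 CPM at 25 h, 10.6 CPM at 31 h and 50.6 CPM at 36 h. The level moved up and down until the last libraries. The value of 36 h in course B and those of 34, 35 and 36 h in course A stood above all earlier ones of their course. The change over 15 h was 0.51 ± 0.17 in course B, under the fold minimum of 1, and 1.07 ± 0.43 in course A (log2 ± SE), where the adjusted p of 0.0514 missed the threshold of 0.05 in edgeR's quasi-likelihood test. Without the libraries of 34 to 36 h the fitted change was 0.23 in course B and −0.20 in course A, so the direction in course A rests on those libraries. Leaving out any 1 of the libraries of 22, 24, 25, 31 or 33 h brought mex-3 past the call in course A.

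**Figure D1:**
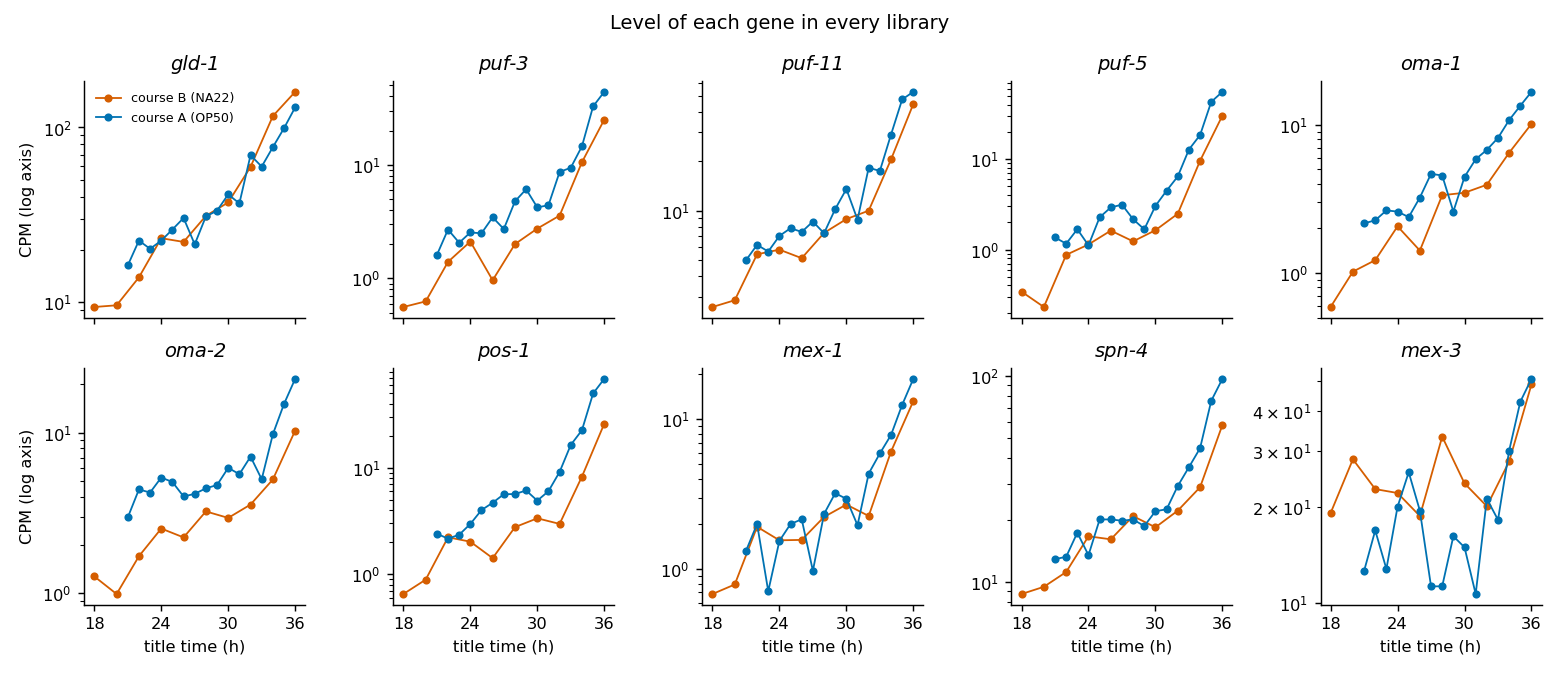
CPM (log axis, a scale of its own in each panel) of the 10 genes against title time in hours, 1 point per library, for course B (NA22, 10 libraries) and course A (OP50, 16 libraries). Each gene had its highest level at 36 h in both courses, and the level of mex-3 at 32 h was close to that at 18 h in course B.

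A gene was called rising at an adjusted p under 0.05 and a change of at least 1 (log2) over 15 h. By that rule 9 of the 10 genes were called in course B, where 16% of the 15003 genes tested were called, and the same 9 in course A, where 21.1% of 15888 were called. The call for mex-3 was absent in both. The median change over the 10 genes was 2.96 in course B and 2.89 in course A (log2), against medians over all genes tested of −0.06 in course B and 0.04 in course A. The later window (30 to 36 h, 4 libraries) lay above the earlier window (18 to 24 h, 4 libraries) without overlap for 9 genes in course B, as for 16.6% of all genes. In course A the windows of 29 to 36 h and 21 to 28 h (8 libraries each) did not overlap for puf-11 and gld-1, as for 9.72% of all genes. These counts describe the choice of the genes.

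Whether the climb sped up was not named in that choice, though the genes and tests were chosen with earlier results of these data known. The last libraries bear on both the rise and the curvature. The share of curved genes among rising genes alone was not computed. Curvature was measured as the change over the later part of a 15 h span minus the change over the equally long earlier part (log2), and called at an adjusted p under 0.05. In course A, 9 of the 10 genes curved upward by edgeR's quasi-likelihood test, against 3.69% of all genes tested. The largest curvature was that of puf-5, 3.68 ± 0.49 with an adjusted p of 0.000176. The genes pos-1 (2.29 ± 0.34, adjusted p = 0.000411), spn-4 (1.56 ± 0.32, adjusted p = 0.00508) and puf-11 (1.72 ± 0.40, adjusted p = 0.0102) followed by p. These 4 genes kept the call when any 1 of the 16 libraries was left out.

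The other upward curves in course A were less secure. They were 2.11 ± 0.51 for puf-3 (adjusted p = 0.0129), 1.07 ± 0.31 for gld-1 (0.0319) and 1.94 ± 0.57 for mex-3 (0.0338). For oma-2 the curvature was 1.66 ± 0.51 (adjusted p = 0.0417) and for mex-1 2.18 ± 0.68 (0.0437). The count fell to 5 without the library of 22, 27, 28 or 35 h and to 4 without that of 36 h, and it was 6 without that of 30 h. The gene oma-1, with 1.05 ± 0.44 and an adjusted p of 0.132, was not called. The median over the 10 genes was 1.83, against −0.20 over all genes tested (log2).

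In course B, none of the 10 genes was called curved by edgeR, against 0.24% of all genes called with an upward curve. DESeq2 and limma called none of them either, against 2.97% of all genes by DESeq2 and 8.17% by limma. All 10 estimates were positive, between 0.08 for oma-1 and 1.92 ± 0.80 for puf-3 (adjusted p = 0.344), with a median of 0.83, and 2 had an unadjusted p under 0.05. The difference in curvature, course B minus course A, was negative for all 10 genes, between −0.30 for puf-3 and −2.01 ± 1.04 for puf-5. It was called for none of them by edgeR, DESeq2 or limma, against 1.79% (edgeR), 7.56% (DESeq2) and 3.97% (limma) of all genes in either direction. In edgeR 2 had an unadjusted p under 0.05 (spn-4, −1.41 ± 0.51, adjusted p = 0.158, and mex-3, −1.76 ± 0.73, adjusted p = 0.225). This comparison was added after seeing the data. Medians over all genes tested were −0.09 for curvature in course B and 0.03 for the difference in curvature (log2). The share of all genes with each sign was not computed. The 10 genes share the libraries and a common climb with time, so both counts of signs are descriptions. Without the 36 h library of course B, spn-4 alone was called at −2.19 (adjusted p = 0.0170).

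Steps between neighbouring libraries describe when the levels climbed. Each step compares single libraries, and the share of all genes higher in it was not computed. The counts are therefore descriptions of genes chosen as rising. In course B all 10 genes were higher at 34 h than at 32 h and higher at 36 h than at 34 h, with median steps of 1.00 and 1.07 (log2). In course A all 10 were higher at 32 h than at 31 h and in each of the steps that end at 34, 35 and 36 h, with medians of 0.76, 0.50, 0.69 and 0.38. Earlier steps were mixed. In course B, 9 of the 10 genes were higher at 22 h than at 20 h, with a median step of 0.85, and 9 were higher at 28 h than at 26 h (0.52), while 2 were higher at 26 h than at 24 h (−0.18).

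**Figure D2:**
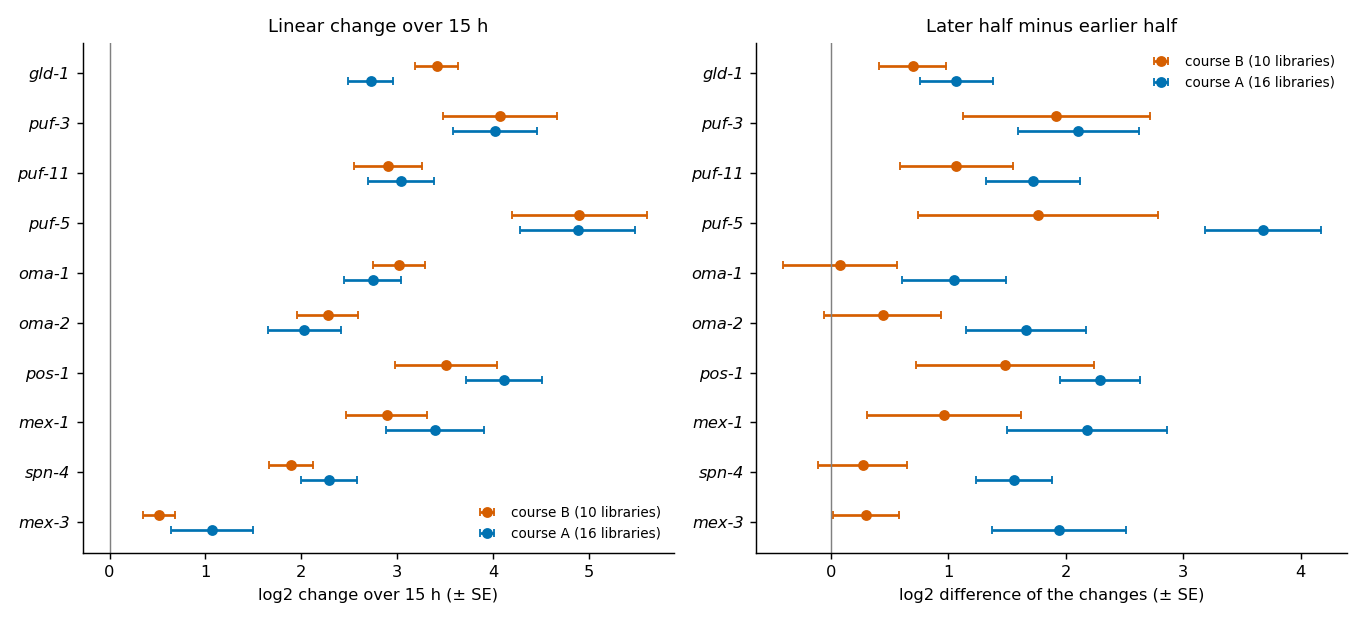
Left, linear change over 15 h (log2 ± SE) of each gene in course B (above) and course A (below). Right, curvature as the change over the later part of the span minus that over the earlier part (log2 ± SE). The changes lie between 0.51 and 4.90, lowest in mex-3, and all 20 curvature estimates lie above 0.

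Many worm genes cycle with the larval molts, about every 8 h in these courses, and the RNA-binding protein genes were tested for the same period. None was called oscillating by edgeR in course B, against 21% of all genes tested, or in course A, against 22.8%. DESeq2 and limma called 0 of the 10 genes in course B, against 3198 (DESeq2) and 2857 (limma) of all 15003 tested. They called 1 each in course A, against 3804 (DESeq2) and 3294 (limma) of all 15888 tested. A call needed an adjusted p under 0.05 in edgeR's quasi-likelihood test of the cosine and sine together and a peak-to-trough difference of at least 1 (log2). At an unadjusted p under 0.05 there was 1 gene in each course. It was mex-3 in course B, with a peak-to-trough difference of 0.84 ± 0.18, an adjusted p of 0.0249 and a fitted peak at 28.2 h. It was pos-1 in course A, with 1.12 ± 0.35 and an adjusted p of 0.0553. The median over the 10 genes was 0.41 in course B and 0.50 in course A, against 0.56 in course B and 0.59 in course A over all genes tested.

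The courses were compared over the 8 title times they share, from 22 to 36 h, each time forming a block. By the labels' harvest times, the course A library of each pair was taken 1 h later than the course B library. At the same title time, 9 of the 10 genes were lower in course B on average. The share of all genes lower by sign alone was not computed, and the median difference over all genes tested was itself below 0 (−0.13, log2). The difference, course B minus course A, was −1.07 ± 0.22 for pos-1 (log2 ± SE, adjusted p = 0.00785), with 7 of the 8 pairs lower in course B. This was the 1 gene past the fold minimum of 1, against 7.74% of all genes called lower in course B. It fell just under that minimum without the pair of 26 h (−0.96) or 32 h (−0.97). By the same rule, 5 of 9 oocyte markers, 2 of 9 sperm markers and 0 of 9 germline markers were called lower in course B. The median differences were −1.07 for oocyte, −1.11 for sperm and 0.35 for germline markers, beside −0.56 for the 10 genes (log2).

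Another 5 genes were lower in course B at an adjusted p under 0.05 but by less than the fold minimum. With pos-1 this made 6 of the 10, against 16.9% of all genes lower in course B at that threshold alone. Among the 5, the difference was −0.99 ± 0.13 for oma-2 and −0.95 ± 0.20 for puf-3, each lower in course B in 8 of 8 pairs. The genes puf-5 (−0.80 ± 0.15), oma-1 (−0.70 ± 0.14) and puf-11 (−0.42 ± 0.11) were lower in course B in 7, 8 and 7 of the 8 pairs. For oma-2 the levels were 10.3 CPM in course B and 21.6 CPM in course A at 36 h, and 1.70 CPM in course B and 4.43 CPM in course A at 22 h. Differences for spn-4 (−0.30 ± 0.11, adjusted p = 0.0699) and mex-1 (−0.34 ± 0.14, adjusted p = 0.108) missed the threshold. For gld-1 the difference was −0.09 ± 0.15 (adjusted p = 0.694), with 4 pairs lower and 4 higher, and for mex-3 it was 0.28 ± 0.18 (adjusted p = 0.279).

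Cycling genes had peaked about 3 h later in course B by title time in an earlier analysis of these data, so course B was also set against course A libraries taken 3 h earlier, which gave 7 pairs. By harvest time the gap within each pair was 1 h shorter than by title time. None of the 10 genes was then called by edgeR, DESeq2 or limma, against 12.9% of all genes in either direction by edgeR. Of all 15591 genes tested, DESeq2 called 825 higher and 1125 lower in course B, and limma 185 higher and 1823 lower. At an unadjusted p under 0.05 there were 3 in edgeR, and the same 3 had an adjusted p under 0.05 without the fold minimum. All 3 were higher in course B, as were 23.9% of all genes at that threshold alone, so the count is near the background. The level was higher in course B for mex-3 by 0.82 ± 0.16 (adjusted p = 0.00166) and for gld-1 by 0.78 ± 0.18 (adjusted p = 0.00552), each in 7 of 7 pairs, and for mex-1 by 0.73 ± 0.27 (adjusted p = 0.0454) in 6 of 7 pairs. The other 7 differences lay between −0.30 ± 0.23 (pos-1) and 0.36 ± 0.21 (puf-11), and with total counts alone as the scale those of puf-3, puf-5, oma-1 and spn-4 were below 0. On the TMM scale, 4 of the 9 germline markers were called higher in course B, with a median difference of 0.92. The same held for 4 of the 9 sperm markers, with a median of 0.88, and 1 of the 9 oocyte markers, with a median of 0.07. Of all genes tested, 4.86% were called higher.

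**Figure D3:**
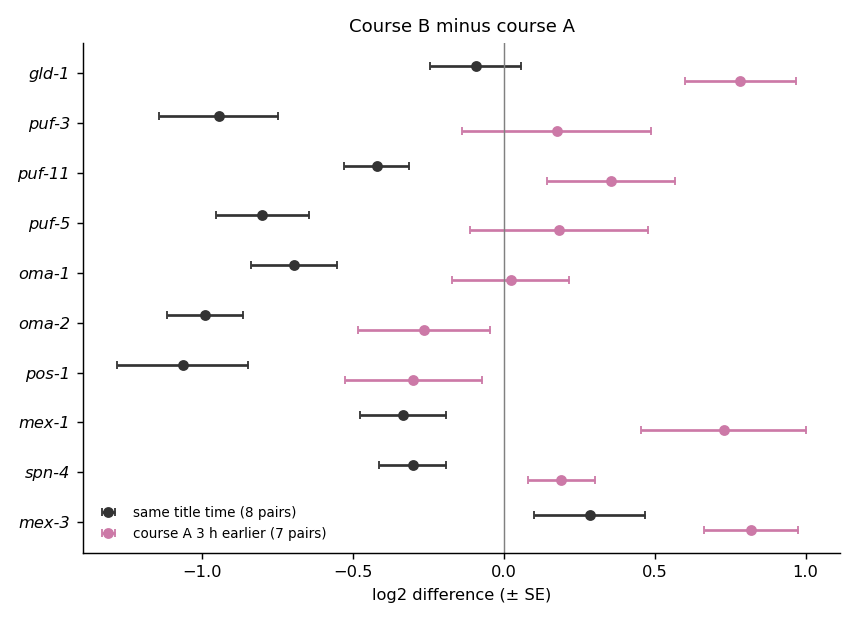
Difference in level, course B minus course A (log2 ± SE), of each gene at the same title time (8 pairs, dark) and with course A taken 3 h earlier (7 pairs, pink). At the same title time 9 of the 10 genes lie left of 0, and with the 3 h offset mex-3, gld-1 and mex-1 lie farthest to the right.

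The course B level of each gene was also placed on the course A curve. The 36 h level of course B corresponded to a course A time 0.24 h (mex-3) to 2.21 h (oma-1) earlier, with a median of 1.42 h over 9 genes. The 36 h level of gld-1 in course B lay above its highest level in course A. At 30, 32 and 34 h the median lag was 3.56 h (9 genes), 2.98 h and 1.16 h (10 genes each). The lag ran from −3.44 h (mex-3) to 5.67 h (puf-5) at 30 h, from −1.05 h (mex-3) to 10.52 h (oma-2) at 32 h and from −1.58 h (gld-1) to 4.61 h (oma-2) at 34 h. The lag differed between the genes by hours, and it carries no error because each time has 1 library. These are lags by title time. Course A was harvested 1 h after its title times, so by harvest time each lag is 1 h shorter.

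The slope of the rise was compared over all 26 libraries by an interaction term. None of the 10 genes was called with a different slope by edgeR, DESeq2 or limma, against 0.46% (edgeR), 1.36% (DESeq2) and 0.765% (limma) of all genes in either direction. The estimates ran from −0.54 ± 0.67 for pos-1 to 0.74 ± 0.35 for gld-1 (course B minus course A over 15 h, log2), with 5 positive and 5 negative. For gld-1 the unadjusted p was 0.0473, the 1 value under 0.05, and the adjusted p was 0.372.

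Per length of exon at 36 h, gld-1 stood highest in course B with 72.1 CPM per kb, followed by spn-4 with 38, puf-11 with 25.8, mex-3 with 23.8 and pos-1 with 23.2. The lowest levels in course B were 7.05 for mex-1, 6.67 for oma-2 and 5.63 for oma-1. In course A, spn-4 (63.7), pos-1 (61.3) and gld-1 (58.8) were close together at the top, and oma-2 (14), mex-1 (9.93) and oma-1 (9.26) were lowest. These are levels of single libraries, so neighbours in the order cannot be told apart. The genes lie on chromosome I (gld-1, mex-3), II (puf-5, mex-1), IV (puf-3, puf-11, oma-1) and V (oma-2, pos-1, spn-4) in the Ensembl annotation of WBcel235. There, exons of mex-1 overlap those of acbp-6 on the opposite strand by 18 bases and exons of spn-4 those of ZC404.15 by 8 bases, and the other 8 genes overlap no exon of another gene.

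The 10 profiles resembled each other except for that of mex-3. Over the 26 libraries, with log2 levels centred and scaled within each course, the 36 pairs without mex-3 had a Pearson r between 0.894 and 0.980 and a median of 0.953. The 9 pairs with mex-3 had r between 0.653 and 0.796. Against the mean of the other 9 genes, r was highest for puf-11 (0.989) and puf-3 (0.983) and lowest for oma-1 (0.941) and mex-3 (0.761). All these points share the libraries and the common climb with time, so r is a description.

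Among 10089 other named genes with a mean of at least 5 CPM in each course, the 10 most like the mean profile were gfat-2 (r = 0.991), cpg-1 (0.987), egg-1 (0.987), rme-2 (0.986), cey-2 (0.985), cpg-2 (0.985), era-1 (0.984), gln-5 (0.984), gln-6 (0.983) and let-99 (0.982). The genes cpg-1 and cpg-2 encode eggshell proteoglycans, egg-1 a membrane protein of the oocyte surface, and rme-2 the yolk receptor of the oocyte. In all, 292 genes or 2.89% reached r of 0.9, and the median r was −0.0045.

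Relatives and partners of the 10 genes divided. Of all genes tested, 16% were called rising in course B and 21.1% in course A, and the share called in both was not computed. The lists of genes and markers below share some members, among them rme-2, egg-3, zif-1, mei-1 and lin-41, so their counts are not independent. Of 7 other PUF genes, 5 rose in both courses and none fell in both. Examples are puf-7 (3.23 ± 0.31 in course B, 2.68 ± 0.22 in course A), puf-6 (3.21 ± 0.28 in course B, 2.61 ± 0.25 in course A) and puf-8, which acts in germ line stem cells and spermatocytes (1.27 ± 0.12 in course B, 1.34 ± 0.17 in course A; log2 over 15 h). Of 6 other CCCH genes tested, 3 rose in both: the polarity genes mex-6 (3.71 ± 0.24 in course B, 3.61 ± 0.29 in course A) and mex-5 (3.38 ± 0.23 in course B, 3.17 ± 0.27 in course A), and pie-1, a germ cell fate gene (2.29 ± 0.22 in course B, 2.39 ± 0.38 in course A). The genes puf-6 and puf-7 are a close pair, and reads they share have the same limit as those of puf-3 and puf-11.

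Of 26 partners and other germline RNA regulators with a test in each course, 13 rose in both and 1 fell in both. The CPEB gene cpb-1, needed for spermatogenesis, rose by 5.97 ± 1.04 in course B and 3.37 ± 0.75 in course A. Its relative cpb-2 averaged 27.9 CPM at 30 to 36 h and 0.0288 CPM at 18 to 24 h in course B, and 35.2 CPM at 29 to 36 h and 1.91 CPM at 21 to 28 h in course A. The Nanos gene nos-1 rose by 3.14 ± 0.26 in course B and 2.31 ± 0.29 in course A. The gene that fell was lin-41, a regulator of oocyte maturation that is also made in larval skin, with −2.96 ± 0.47 in course B and −1.97 ± 0.43 in course A.

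Of 16 maternal mRNAs known as targets of such proteins, 8 rose in both and 1 (lin-41) fell in both. The yolk receptor gene rme-2 changed by 3.72 ± 0.50 in course B and 3.68 ± 0.47 in course A, zif-1 by 1.65 ± 0.27 in course B and 2.49 ± 0.22 in course A, and neg-1 by 1.76 ± 0.25 in course B and 2.21 ± 0.38 in course A. Of 17 genes of oocyte signalling and protein turnover, 6 rose in both. The cyclin gene cyb-1 changed by 2.69 ± 0.23 in course B and 3.34 ± 0.25 in course A, and egg-3 by 3.37 ± 0.26 in course B and 2.71 ± 0.33 in course A. The pseudophosphatase gene egg-4 averaged 0.889 CPM at 30 to 36 h and 0.0613 CPM at 18 to 24 h in course B, against 1.33 CPM at 29 to 36 h and 0.329 CPM at 21 to 28 h in course A.

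Upward curvature in course A was seen in some of these lists. It was called upward for 1 of 7 other PUF genes (puf-6, 1.03 ± 0.33, adjusted p = 0.0480), 1 of 6 other CCCH genes (mex-6, 1.5 ± 0.35, adjusted p = 0.00956), 6 of 18 genes of oocyte signalling and turnover, and 4 of 9 oocyte markers. Of the 9 germline markers none was called upward and 1 (him-3, −1.02 ± 0.22, adjusted p = 0.0064) downward, and their median was −0.12. Of the 9 sperm markers none was called upward and 4 downward, and their median was −2.96. Of 28 partners and other germline RNA regulators, 4 were called upward and 3 downward. Of 18 maternal mRNAs known as targets, 4 were called upward and 1 downward. The medians were 1.57 over the oocyte markers and −0.03 over the other PUF genes, beside 1.83 over the 10 genes and −0.20 over all genes (log2).

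Markers of the germ line, oocytes and sperm also moved in the same hours. All 9 germline markers rose in both courses, and so did 7 of 8 oocyte markers and all 9 sperm markers. Examples are the meiotic chromosome genes him-3 (3.64 ± 0.23 in course B, 2.78 ± 0.20 in course A) and syp-1 (3.06 ± 0.22 in course B, 2.45 ± 0.21 in course A) and the germ granule gene pgl-3 (3.17 ± 0.20 in course B, 2.86 ± 0.24 in course A; log2 over 15 h). Among the oocyte markers, egg-1 rose by 4.03 ± 0.56 in course B and 4.24 ± 0.55 in course A, and perm-2 averaged 6.10 CPM at 30 to 36 h, against 0 counts at 18 to 24 h, in course B, and 19.6 CPM at 29 to 36 h, against 0.0271 CPM at 21 to 28 h, in course A. The summed sperm markers had a median of 325 CPM at 30 to 36 h and 1.67 CPM at 18 to 24 h in course B, and of 346 CPM at 29 to 36 h and 6.88 CPM at 21 to 28 h in course A. The summed germline markers had a median of 1424 CPM at 30 to 36 h and 432 CPM at 18 to 24 h in course B, and of 854 CPM at 29 to 36 h and 457 CPM at 21 to 28 h in course A. Among 7 soma markers none rose in both courses and 2 fell in both: the cuticle collagen gene dpy-7 (−1.58 ± 0.55 in course B, −2.15 ± 0.62 in course A) and the synaptic vesicle gene rab-3 (−1.47 ± 0.10 in course B, −1.39 ± 0.18 in course A). Among the 7 soma markers, 1 was called oscillating with the 8 h cycle in each course. The largest peak-to-trough difference among them was 5.96 in course B and 5.93 in course A (log2), beside which these falls are small. The part of the marker changes over 15 h in the rise of the RNA-binding protein genes was not tested. Embryo markers were near 0: of 9 zygotic genes without elt-7, which is also made in the larval gut, the highest level was 0.423 CPM in course B and 0.818 CPM in course A, and sdz-23 had 0 counts in every library.

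Set against the germline markers, the 10 genes together stood highest at 36 h. Their summed CPM was 10.1% to 25.1% of the germline marker sum at 30 to 36 h in course B, with a median of 12.7%, against 12.8% to 14.6% at 18 to 24 h, with a median of 13.8%. In course A it was 12.2% to 44.6% at 29 to 36 h, with a median of 22.3%, against 15.1% to 20.6% at 21 to 28 h, with a median of 18.5%. The lowest shares were 9.99% at 26 h in course B and 12.2% at 29 h in course A, and the highest were those at 36 h. Without gld-1, which had the highest CPM of the 10 at 36 h, the 36 h share was 15.7% in course B and 34.2% in course A. In course B that share ran from 5.85% to 15.7% at 30 to 36 h, with a median of 7.03%. At 18 to 24 h it ran from 9.54% to 12.1%, with a median of 10.6%, so the median fell. In course A the medians were 14.6% at 29 to 36 h and 13.2% at 21 to 28 h.

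**Figure D4:**
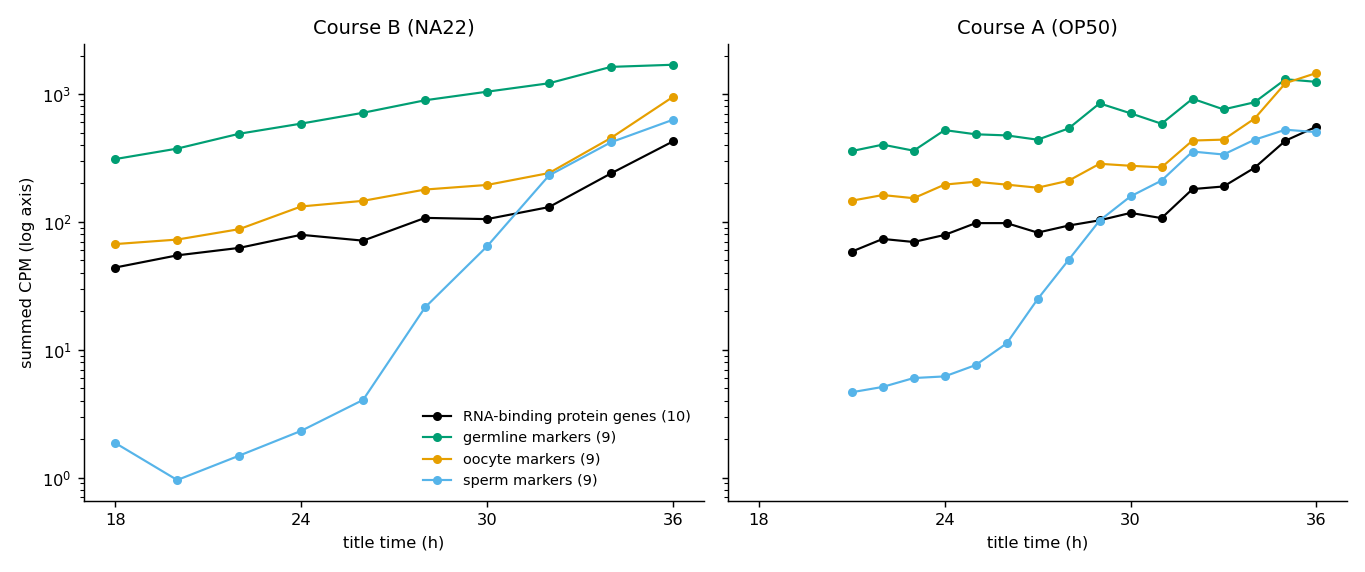
Summed CPM (log axis) of the 10 RNA-binding protein genes and of the 9 germline, 9 oocyte and 9 sperm markers against title time, for course B (left) and course A (right), 1 point per library. Sperm markers climb from about 26 h, while the RNA-binding protein genes and the oocyte markers climb most steeply in the last libraries.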

How the data were processed

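The authors deposited raw counts per gene, 1 column per library, and a table of log2 values. The deposited log2 values could be recomputed within 5e-05 by scaling each count to its course's mean total, adding 8 and taking the log2. They lie 0.47 apart between the courses at equal share, which was subtracted for limma. Tri-Reagent served for RNA isolation and the ScriptSeq v2 kit for the libraries, per the labels' protocols. Not given in the sources used here are the aligner, the counter, how strands and multiply matching reads were handled, the build and the annotation. No coordinates are printed for that reason.

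Names were joined by identifier (18778 of 20182 genes). Counts were fitted in R 4.3.3 with edgeR 4.0.16 (TMM, robust quasi-likelihood F tests) for genes that reached the equivalent of 10 counts, at the median library size, in 3 or more libraries. The model of a single course held linear time and an 8 h cosine and sine, with squared time added for curvature. The courses were compared at shared times with time as a block, and by interaction terms. Neighbouring times may deviate together, which these fits do not allow for. P-values were adjusted by Benjamini-Hochberg over all genes tested. Standard errors are the size of the estimate divided by the root of F. DESeq2 1.42.0 and limma 3.58.1 were alternatives, beside other scalings, filters and left-out libraries. A count of 0 still allows 3 counts, which is 0.0932 to 0.185 CPM by library, for counting error only.

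On simulated data, of 100 genes each with a trend of 1.5 (log2), 97% were recovered in course B (13934 genes) and 92% in course A (14312 genes). All of those with 3 were recovered in both. The simulated counts were independent between libraries, with a single fixed dispersion, no cycle and level means apart from the linear trend. They do not bear on curvature, or on neighbouring times that deviate together.

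The 10 genes, the companion lists and the tests were chosen with earlier results of these data known. All 10 are named. From each companion list the text names the 3 genes with the largest rise and the 3 with the largest fall called in both courses, and other genes it names were chosen after their values were seen. Sperm markers are given as a sum. The names puf-4 and puf-10 matched no identifier and msd-1 matched more than 1, so these were left out. Likeness used log2(CPM + 0.5). No libraries held identical counts.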

Additional observations from a re-analysis of the deposited data

Results flagged for a closer look

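In course B the library of 36 h stood far above the other 9 libraries for 8 of the 10 genes, by the gap to the next highest library over the whole range. The gap took 0.699 of the range for pos-1, 0.689 for puf-5, 0.592 for puf-3, 0.591 for spn-4, 0.573 for puf-11, 0.569 for mex-1, 0.558 for oma-2 and 0.513 for mex-3. For oma-1 (0.384) and gld-1 (0.291) the gap was smaller. The 10 libraries are different times of one course and not replicates, so a gene that climbs steeply at the end is picked out by this measure. Among replicates, chance alone picks out about 1 in 20 groups, which is no yardstick for a time course. The share of all genes picked out was not computed. Because the 10 genes were chosen as rising, the count of 8 is a description. The 9 genes called rising in course B were also called there without the library of 36 h.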

How the results depend on the processing

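The count of 9 rising genes per course ran from 8 to 10 over all settings run, with 8 in course A without the libraries of 34 to 36 h. For the 8 h cycle, 1 gene was called in course B without the fold minimum, against 4386 of all 15003 tested. In course A, 1 gene was called with total counts alone, with the DESeq2 test, with limma and with squared time. Of all 15888 genes tested there, these settings called 3579, 3804, 3294 and 3745, in that order. With 1 library left out the cycle count ran from 0 to 1 in each course. Upward curvature in course A was called for 5 genes without the cosine and sine (a setting chosen after seeing the data) and for 4 to 9 with 1 library left out. Without the cosine and sine, 186 of all 15888 genes tested were called upward. At shared times, 6 genes were called different without the fold minimum, 4 with total counts alone and 3 with limma, and 0 to 3 with 1 pair left out. Of all 15639 genes tested, total counts alone called 146 higher and 2231 lower in course B, and limma 121 higher and 2021 lower. Total counts alone moved the median of all genes from −0.13 to −0.38 (log2), and the share of calls higher in course B was 6.14% against 18.8%. With course A 3 h earlier, 3 genes were called without the fold minimum, and total counts alone gave a median over all genes of −0.34 against −0.05 and 14.1% against 37.6% of calls higher in course B. The share of curved genes in course A that curved upward was 25.6%, 39.0% with the DESeq2 test and 49.8% with limma. The difference in curvature was called for 0 to 1 genes with 1 library left out. The shared title times served as the block in which the courses were paired. Single gene values under other scalings, filters, tests, models and offsets stayed on their side of the threshold in 576 cases, passed it in 8 and lost it in 6. These cases leave out the 8 h cycle, the calls without the fold minimum and the fits with 1 library or pair left out. Calls changed more often in such fits: for curvature in course A, oma-2 and mex-1 each kept the call in 5 of 16. Differences near 0 that were not called could change sign. Causes of these changes were not tested. The lowest count of these genes in any library was 7, and each time has 1 library.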
